A study of Mus musculus with 6 samples.

Results

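The 100 features most specific to microglia in the maturing mouse suprachiasmatic nucleus (SCN) were described here, out of 32285 features counted. The SCN is the hypothalamic centre of the circadian clock. A feature is 1 matrix row, which counts the transcripts of 1 gene. The features were chosen from the nuclei of postnatal day (PND) 10 and PND30. The unique molecular identifiers (UMIs, each marking 1 captured transcript) of each feature were summed within each annotated cluster and scaled to CPM, the number of UMIs among 1000000 UMIs of the cluster. Among 4469 features with at least 50 CPM in the microglia cluster, those 100 were kept whose ratio of microglia over the highest of 8 other clusters was largest, with 5 CPM added to both sides of the ratio. They are called M1 to M100 in the order of this ratio. The count tables used here do not pair rows with gene names, so no feature is named as a gene. Levels of different features are UMI counts that are not scaled by transcript length.

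Microglia are the resident macrophages of the central nervous system. They descend from yolk sac progenitors that colonise the brain during embryonic life, and they then survey the tissue, clear debris and dying cells and take part in the pruning of synapses. Their nuclei are commonly recognised by transcripts such as Cx3cr1, P2ry12, Tmem119, Csf1r and those of complement C1q. These transcripts could not be looked up here, so the name microglia is the name that the authors gave to this cluster and was not checked against its markers.

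Nuclei came from frozen SCN of C57BL6/J wild-type mice at gestational day (GD) 17.5 and at PND2, PND10 or PND30. The tissue of a stage was pooled from males and females of several mothers, so that no value belongs to 1 animal. GD17.5 and PND2 have 1 library each. PND10 and PND30 have 2 libraries each, which may share a pool, and their spread may therefore be technical.

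Microglia were rare in every library. Of the 6 libraries, GD17.5 held 14 microglia among 4921 annotated nuclei and PND2 held 32 among 5555. The PND10 libraries held 27 of 1361 and 48 of 4714, and the PND30 libraries held 8 of 771 and 34 of 5468. The summed microglia of a library had between 58540 and 203079 UMIs, and their median depth per nucleus ran from 1575.5 to 4060 UMIs. No barcode of the 163 microglia occurred in more than 1 library. Values at GD17.5 thus rest on 14 nuclei of 1 pool.

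The levels that chose the features are a description and support nothing further. In the PND10 and PND30 microglia the 100 features had between 61.5 and 1825 CPM, with a median of 177 CPM. Their level in the next highest compared cluster had a median of 2.86 CPM, and it was under 5 CPM for 72 of them. The ratios ran from 11.3 to 84.6 with a median of 19.4. The 5 features just inside the limit had ratios of 11.52 to 11.31 and the 5 just outside had 11.30 to 11.13, so the list ends within a continuum. Mature astrocytes were the next highest cluster for 42 features, NG2/OPCs (oligodendrocyte progenitors) for 22 and mature oligodendrocytes for 14. Neurons came next for the rest. The 10 features with the most UMIs held 31.9% of the 13996 UMIs of the list, and PND10 gave 76.0% of the microglia UMIs that entered the choice.

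The top of the list by ratio was M1, at 854 CPM in microglia of GD17.5 (95% exact Poisson interval 634 to 1126) and 955 CPM at PND2 (810.3 to 1119). It had 728 and 793 CPM in the PND10 libraries and 785 and 1689 CPM in those of PND30. Its 5 lowest libraries thus lay close together, and the second PND30 library stood above them. M2 had 444 CPM at GD17.5, 490.0 CPM at PND2, 577 and 552 CPM at PND10, and 785 and 1115 CPM at PND30, with both PND30 libraries above all others. M3 had 427 CPM at GD17.5, 323 CPM at PND2, 411 and 379 CPM at PND10, and 439.8 and 820.1 CPM at PND30. For M4 the microglia had 376 CPM at GD17.5, 899 CPM at PND2, 634 and 665 CPM at PND10, and 785 and 1361 CPM at PND30. M5 took the other direction, with 1008 CPM at GD17.5 and 794 at PND2 against 567 and 620.4 CPM at PND10 and 518 and 689 CPM at PND30.

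The most abundant feature in UMIs was M30. It had 939.5 CPM at GD17.5 (interval 708 to 1223), 1439 CPM at PND2, 1778 and 1586 CPM at PND10, and 1963 and 2624 CPM at PND30, so that GD17.5 was lowest and both PND30 libraries were highest. M9 followed, with 564 CPM at GD17.5, 1191 CPM at PND2, 1180.4 and 940.5 CPM at PND10, and 1241 and 1870 CPM at PND30. M49 had 564 CPM at GD17.5, 658 CPM at PND2, 754 and 669.7 CPM at PND10, and 644 and 1263 CPM at PND30, where the second PND30 library again stood above the rest. M1 and M4, given above, complete the 5 features with the highest level at PND10 and PND30.

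Together the 100 features made up a small share of the microglia UMIs at all 4 stages, separate from that in other clusters. At PND10 and PND30 this separation follows from the choice, which did not use GD17.5 and PND2. They gave 2.82% of them at GD17.5 (95% Clopper-Pearson interval 2.69 to 2.96) and 3.01% at PND2 (2.931 to 3.099). In PND10 the 2 libraries had 2.51% and 2.23%, and in PND30 they had 2.78% and 4.71%. All intervals of shares and levels cover counting error only. Outside microglia and endothelial cells, the same features gave 0.0272%, 0.0360%, 0.0318% and 0.0265% of UMIs at the 4 stages from GD17.5 to PND30. Barcodes with fewer than 750 UMIs, below the limit that the authors set, had between 0.0488% and 0.246% in the 6 libraries.

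**Figure D1:**
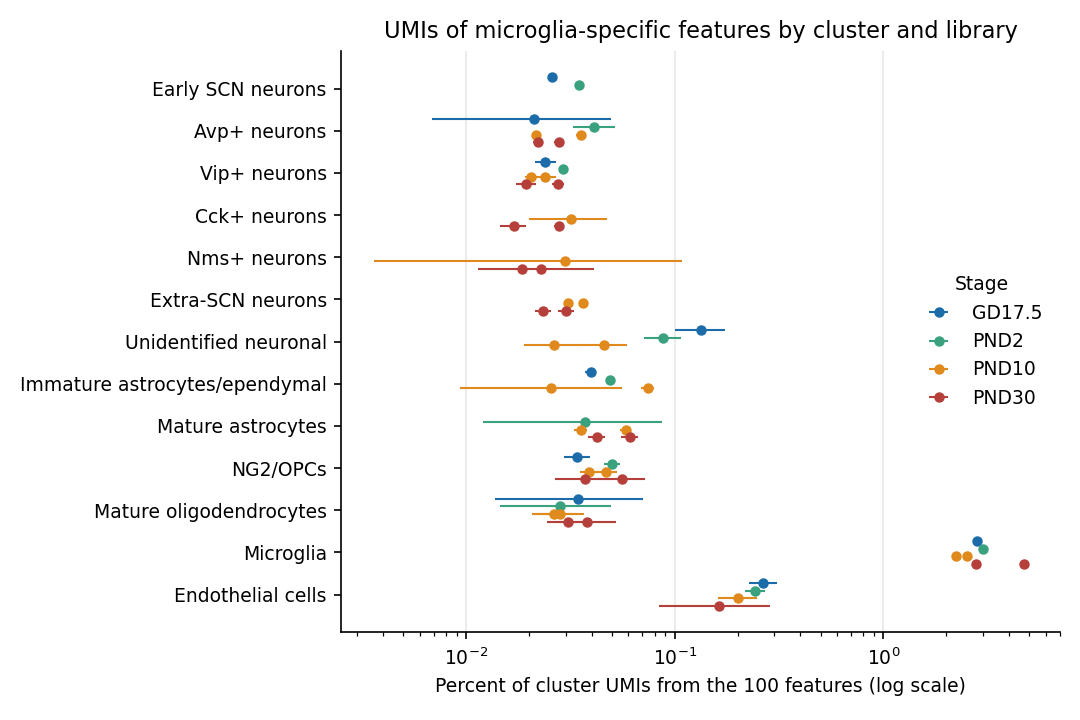
Percent of UMIs from the 100 microglia-specific features (x axis, log scale) in each annotated cluster (y axis), with 1 point per library coloured by stage and bars for the 95% Clopper-Pearson interval. Clusters with fewer than 3 nuclei in a library are not drawn, the microglia points lie between 2.23% and 4.71%, and the endothelial points lie below them and above most other clusters.

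The choice of features did not use GD17.5 or PND2, so these stages show whether the pattern was present earlier. At GD17.5 microglia had the highest level of all clusters for 96 of the 100 features, where 24.1% of the 4469 features with at least 50 CPM did so. At PND2 this held for 99 of 100 against 22.0%. A ratio of 2 or more over the highest other cluster was reached by 92 features at GD17.5 (7.68% of the 4469) and by 94 at PND2 (7.14%), and 90 reached it at both stages. The median ratio of the list was 11.6 at GD17.5, with quartiles of 6.60 and 21.6, and 12.0 at PND2, with quartiles of 6.46 and 20.1. The median over the 4469 features was 0.567 and 0.568. Small clusters set part of the ratios at GD17.5, where the median was 22.7 against clusters of at least 20 nuclei. In nuclei thinned to 1500 UMIs it was 18.6. With 1 or 20 CPM added in place of 5, the list was chosen anew and shared 90 or 81 features. The median of these lists was 22.4 or 5.87. These are descriptions without a test, since the authors built the clusters from the genes of these same nuclei and each stage has 1 library.

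Depth limits single features more than the list. Of the 100 features, 99 had a UMI in the microglia of GD17.5 and all 100 had at least 5 UMIs at PND2. The median was 11.5 UMIs per feature at GD17.5 and 32.5 at PND2, and 9 features had 3 UMIs or fewer at GD17.5. M17 had the highest ratio at GD17.5, 88.6, with 820.0 CPM from 48 UMIs. M13 had the highest at PND2, 81.9, with 968 CPM.

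**Figure D2:**
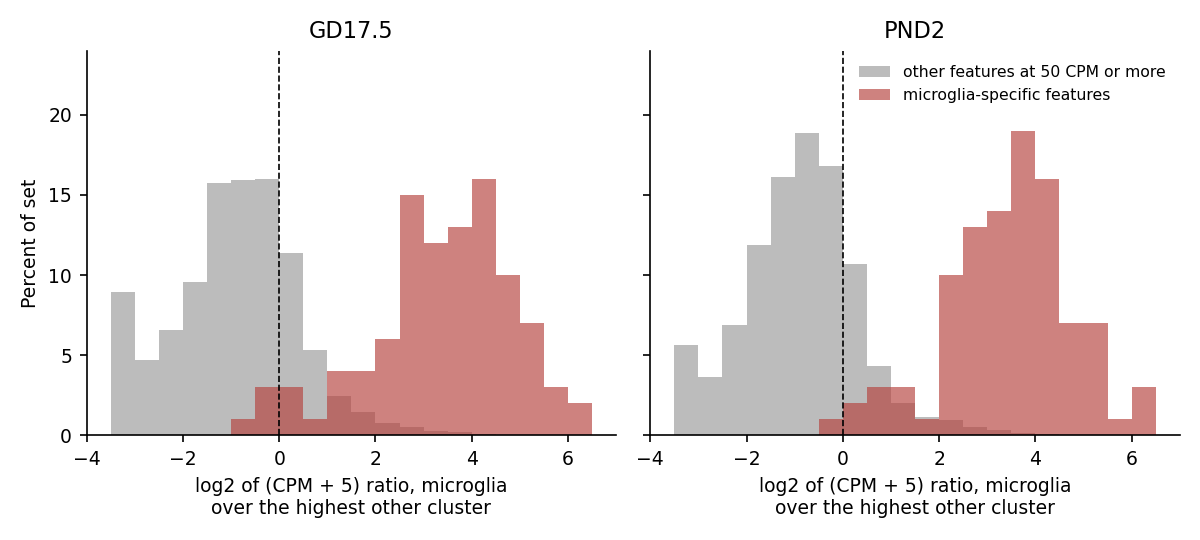
Distribution of the log2 ratio of microglia over the highest other cluster, with 5 CPM added to both sides, at GD17.5 (left) and PND2 (right), for the 100 microglia-specific features (red) and the other features with at least 50 CPM (grey). The y axis is the percent of each set, the first bar also holds lower values, the dashed line marks equal levels, and 96 and 99 of the 100 features lie to its right.

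The list of the oligodendrocyte progenitors, chosen by the same rule, was much less specific from the start, with a median ratio of 3.08 at PND10 and PND30. In that list the progenitors were highest for 37 of 100 features at GD17.5 and for 68 at PND2, and 9 and 30 features had a ratio of 2 or more. The same counts over all features were not made for the progenitors, so these counts have no background beside them. The median ratio was 0.807 at GD17.5 and 1.31 at PND2, from 103 and 183 progenitor nuclei. The difference between the lists was not tested.

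The features that were not specific early were mainly those that endothelial cells also carried. Endothelial cells line the vessels of the brain, and their cluster was not among those that the choice compared. Over PND10 and PND30 together no feature of the list was higher in endothelial cells or another cluster left out of the choice than in microglia, and 95 of 100 kept a ratio of 2 or more when all clusters were compared. At PND10 alone endothelial cells, with 4 nuclei, were above microglia for M58 and for M53 (179 against 144 CPM). At PND30 alone endothelial cells, with 3 nuclei and 7361 UMIs, were above microglia for none. Endothelial cells nevertheless came above all 8 compared clusters for 20 features. The list held 0.266% of their UMIs at GD17.5 and 0.243% at PND2, and later 0.183% and 0.163%, the last from 12 UMIs. A few features carried most of this, since 10 of them held 82.8% of the 618 UMIs found in 32 endothelial nuclei to which 57 features contributed.

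M58 had the most UMIs in endothelial cells. It had 888 CPM in microglia and 792 CPM in endothelial cells at GD17.5, 849.8 and 592 CPM at PND2, 567 and 617 CPM at PND10, and 810.4 and 272 CPM at PND30. Microglia were thus lower than endothelial cells at PND10 and higher at the other stages, with only 3 endothelial nuclei at PND30. Over PND10 and PND30 together M58 had 625 CPM in microglia and 573 CPM in endothelial cells, and without the second PND30 library 545 and 617 CPM. M91 had 957 CPM in microglia and 347 CPM in endothelial cells at GD17.5, and 1110.3 and 413 CPM at PND2. For M12 the values were 239 and 215 CPM at GD17.5 and 254 and 234 CPM at PND2.

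Endothelial cells led microglia at an early stage for 3 features. M47 had 256 CPM in microglia and 314 CPM in endothelial cells at GD17.5, and 124 and 151 CPM at PND2. M44 had 137 and 149 CPM at GD17.5, and M53 had 85.4 and 132 CPM. These endothelial values came from 9 nuclei at GD17.5 and 16 at PND2 and lay within the Poisson intervals of the microglia values. The remaining feature without its highest level in microglia at GD17.5 was M15, which had 0 UMIs there.

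The level of the list within microglia was on the median close to the late level at both early stages, while single features lay on either side of it. Over the 100 features, the median level relative to PND10 and PND30 was 0.990-fold at GD17.5 and 1.06-fold at PND2, and the median over the 4469 features was 0.957-fold and 0.951-fold. At GD17.5 the exact Poisson interval lay wholly above the late level for 20 features (8.68% of the 4469) and wholly below it for 9 (7.90%). At PND2 it lay above for 25 (14.5%) and below for 12 (14.7%). In all, 13 features were above at both stages, 4 were below at both, and 2 (M4 and M8) were below at GD17.5 and above at PND2. These intervals do not cover differences between pools. The late level was taken without its own counting error, though it rests on 32 UMIs for M100. It also chose the features, so it is not an independent reference.

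This balance rested on a few deep nuclei. Microglia nuclei with more than 10000 UMIs numbered 15 of 163 and held 38.8% of all microglia UMIs. Without them, 9 features lay above the late level (7.63% of the 4469) and 17 below it (5.64%) at GD17.5. At PND2, 12 lay above (10.9%) and 20 below (10.8%). The medians then were 0.823-fold and 0.885-fold. The features named next stayed on the same side without these nuclei at the stage for which they are named.

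M42 had the largest early excess at GD17.5. It had 854 CPM there (interval 634 to 1126), 242 CPM at PND2, 140.4 and 172 CPM at PND10, and 314 and 49.2 CPM at PND30. GD17.5 stood 5.23-fold above the late level of 163 CPM, and the PND30 libraries lay on both sides of those of PND10. The PND30 levels of M42 came from 20 and 3 UMIs, found in 4 of 42 microglia in all. M34 had 700.4 CPM at GD17.5 and 155 at PND2 against a late level of 162 CPM, and M73 had 410.0 and 205 against 117.3 CPM. M40 had 1042 CPM at GD17.5 and 608 at PND2, with a late level of 423 CPM. M42, M40 and M73 were above at both early stages, and M34 at GD17.5 only.

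Other features were highest at PND2. M61 had 120 CPM at GD17.5, 385 CPM at PND2 (interval 295 to 493), 57.2 and 98.5 CPM at PND10, and 204 and 229.6 CPM at PND30. M13 had 256 CPM at GD17.5, 968 CPM at PND2 (822 to 1132), 348 and 315 CPM at PND10, and 329.8 and 722 CPM at PND30. For both, PND2 was above every other library. M52 had 372 CPM at PND2 against a late level of 142 CPM, and M90 had 223 CPM, 2.98-fold its late level.

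The features below the late level included several that were highest at PND30. M15 had 0 UMIs in microglia of GD17.5, which allows up to 63.0 CPM. It had 55.8 CPM at PND2 192 and 128 CPM at PND10, and 581 and 1247 CPM at PND30. PND2 lay below both PND10 libraries and these below both PND30 libraries, while the bound at GD17.5 reached into the interval of PND2. M45 had 51.2 CPM at GD17.5, 31.0 CPM at PND2, 78.0 and 88.6 CPM at PND10, and 361.2 and 360.9 CPM at PND30, with both PND30 libraries far above the rest. M87 had 68.3 and 55.8 CPM early, 130.0 and 64.0 CPM at PND10, and 283 and 459 CPM at PND30. M95 had 37.2 CPM at PND2 against a late level of 94.2 CPM. M31 was low at GD17.5 alone, with 1 UMI or 17.1 CPM (0.432 to 95.2) there against 179.9 CPM at PND2 and 204 CPM late.

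**Figure D3:**
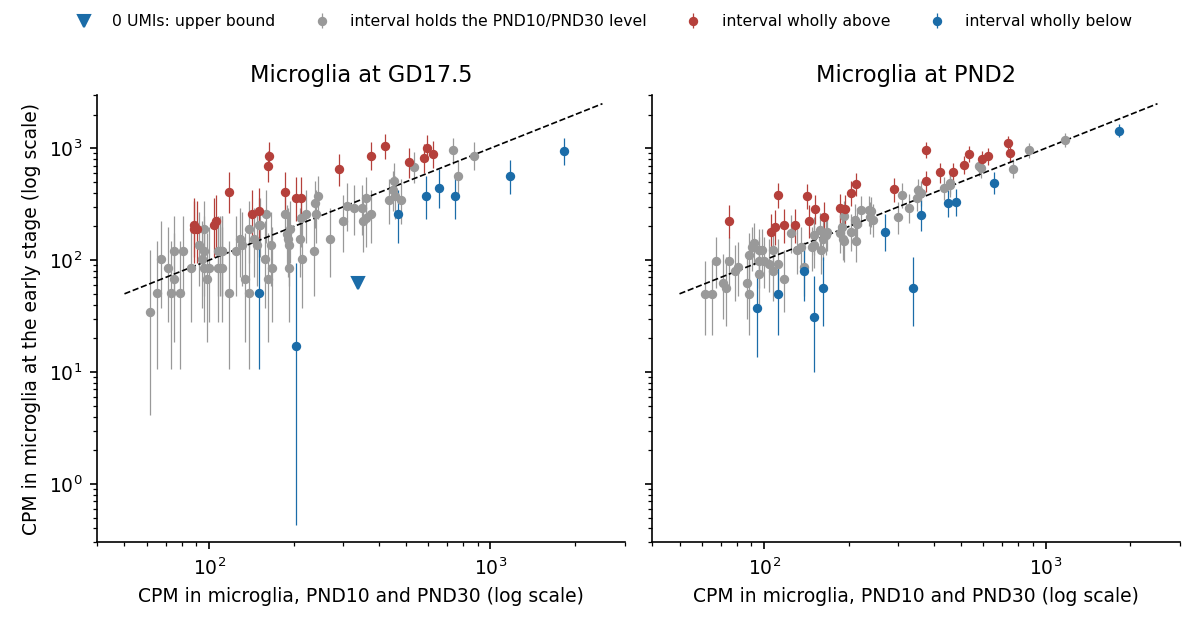
Level of each of the 100 features in microglia at GD17.5 (left) and PND2 (right, y axis, CPM, log scale) against its level in the PND10 and PND30 microglia (x axis, CPM, log scale), with exact Poisson intervals. Red points (20 and 25) have intervals wholly above the late level, blue points (9 and 12) wholly below it, the dashed line marks equal levels, and the triangle is the upper bound of M15, which had 0 UMIs at GD17.5.

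In single nuclei the list was found broadly and not in a few members. A feature of the list was detected in a median of 50%, 53.1%, 46% and 44.0% of microglia in the order of the 4 stages. In nuclei outside microglia and endothelial cells the medians were 0.582%, 0.890%, 0.876% and 0.412%. At PND10 and PND30 this contrast follows in part from the choice of the list. Those nuclei were deeper, with median UMIs of 4953.5, 4899, 5124 and 3458.5 against 2879, 4060, 2949 and 1726.5 in microglia. At 1500 UMIs per nucleus, microglia of the 4 stages had a median of 33, 37.5, 39.5 and 44 of the 100 features, with 0, 0, 11 and 14 shallower nuclei left out. Without this thinning the medians were 53, 57.5, 51 and 48 features.

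The contrast of M15 and M42 was also seen in the number of nuclei. M15 had a UMI in 0 of 14 microglia at GD17.5, in 7 of 32 nuclei at PND2 (21.9%), in 34 of 75 nuclei at PND10 (45.3%) and in 35 of 42 nuclei at PND30 (83.3%). M42 had one in 12 of 14 (85.7%), 17 of 32 (53.1%), 22 of 75 (29.3%) and 4 of 42 (9.52%). In other nuclei M15 was detected in 0.759% to 1.25% and M42 in 0.404% to 1.15%. M30 was found in 42 of 42 microglia of PND30 and also in 21.3% of the other nuclei of that stage, the highest share outside microglia.

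In single nuclei the share of UMIs from the list was higher in microglia, with some overlap. The PND10 and PND30 nuclei chose the list, so their separation follows in part from the choice. At GD17.5, microglia had 1.03% to 5.35%, and nuclei outside microglia and endothelial cells had at most 1.29%. At PND2 these values were 0.786% to 5.92% and 1.05%. Over all 163 microglia the share ran from 0.196% to 7.22% with a median of 4.55%. Of 22627 other nuclei, 6 reached 1%, and the highest, a mature astrocyte nucleus, had 1.87%. There were 29 microglia below that value. Medians of single nuclei were 3.98% at GD17.5 and 4.03% at PND2, while the PND10 libraries had 4.89% and 4.70% and the PND30 libraries 5.77% and 4.94%.

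Low values were frequent among deep nuclei and were not confined to them. Of 31 microglia under 2%, 14 had more than 10000 UMIs and 17 did not, and of 17 under 1%, 9 had more than 10000 UMIs. The 15 microglia over 10000 UMIs had a median of 0.836% from the list (0.196% to 2.30%), and the other 148 had 4.79%. A second list held the 100 features most specific to neurons, chosen in the same way. It gave a median of 4.99% of the UMIs of the deep nuclei, 0.571% of those of the other microglia and 9.09% in the neurons themselves. The range was 0.476% to 9.01% in the deep nuclei and 0.0495% to 8.29% in the other microglia. Among the latter, nuclei of 3238, 7238 and 1719 UMIs had 1.27%, 0.843% and 1.98% from the microglia list. Their neuron shares were 4.73%, 8.29% and 7.39%. A nucleus of 6762 UMIs had 1.88% and 0.547%. Leaving out deep nuclei thus does not remove all microglia with a high neuron share. The authors removed nuclei with a high doublet score before the annotation was made. The part of neuronal RNA or of doublets in the microglia, deep or not, was not tested. Both deep nuclei of PND30, with 16819 and 28895 UMIs, lay in the first library, whose microglia had 63668 UMIs in all. Without deep nuclei the list gave 3.48%, 3.77%, 3.69% and 5.00% of microglia UMIs at the 4 stages.

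**Figure D4:**
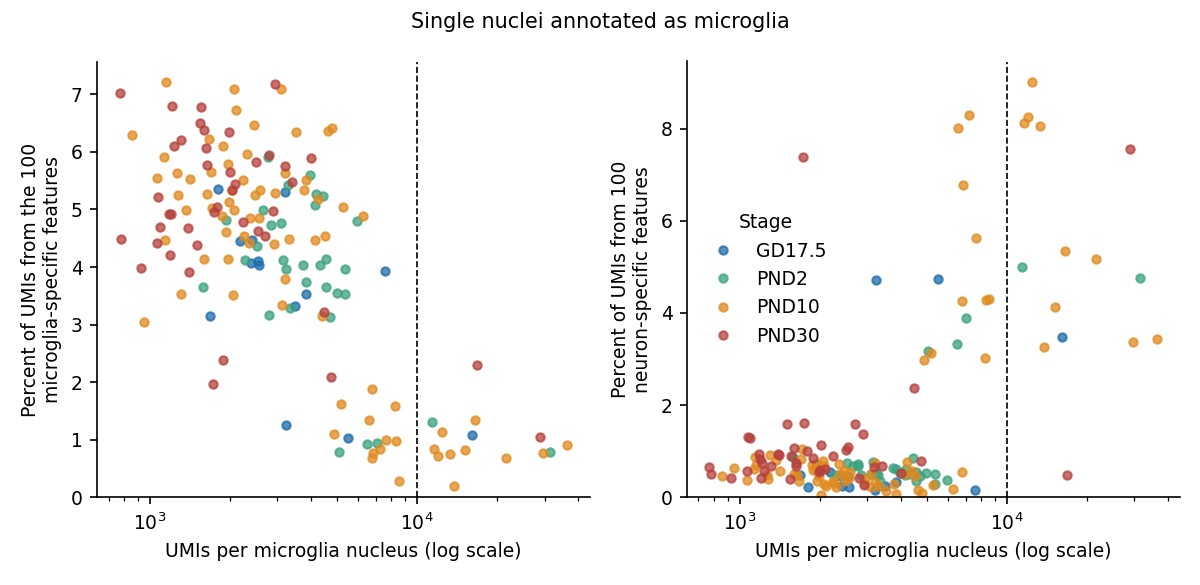
Percent of UMIs from the 100 microglia-specific features (left) and from 100 neuron-specific features (right) in each of 163 microglia nuclei, against UMIs per nucleus (log scale), coloured by stage, with a dashed line at 10000 UMIs. The 15 nuclei right of the line have 2.30% or less from the microglia list, and their median from the neuron list is 4.99%.

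Between PND10 and PND30 most features of the list had a higher mean level at PND30, and no feature passed the test. With edgeR's quasi-likelihood test on the summed UMIs of 2 against 2 libraries, 3429 features were tested and 0 were called (0% of those tested) at a Benjamini-Hochberg adjusted p of 0.05. Of the list 96 features were tested, 4 were too low, and none was called. At an unadjusted p of 0.05, 22 of the 96 passed, all 22 higher at PND30, where 6.36% of the 3429 were higher and 9.33% lower. The same UMIs chose the list, by their sum over both stages and not by their difference, so these counts describe the list and support nothing about it. DESeq2 called 51 of the 3429, of which 1 was in the list (M15, log2 change 2.50, DESeq2 adjusted p = 0.00623).

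The median log2 change of the 96 features was 0.55, with a median standard error of 0.46, and that of all 3429 was 0.01. The changes ran from -0.70 to 2.49, and 87 of 96 were above 0. Without the second PND30 library 60 of 100 were above 0, and without deep nuclei 70 of 91 were. The median over all tested features was -0.10 and -0.01 in these fits. Without deep nuclei 8 of the 91 were higher and 1 was lower at an unadjusted edgeR p of 0.05, against 34 and 23 of all 1670 tested. Both PND30 libraries were above both PND10 libraries for 47 of the 100 features (23.5% of the 3429), and both were below for 2 (23.3%). For the other 51 the libraries overlapped. The 2 below were M50, with 229 and 236 CPM at PND10 and 157 and 131 CPM at PND30, and M73, with 120 and 128 CPM against 94.2 and 98.4 CPM.

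The lowest p belonged to features described above. M15 had a log2 change of 2.49 ± 0.48 (SE, edgeR adjusted p = 0.0627), M45 of 2.08 ± 0.40 (edgeR adjusted p = 0.0627) and M87 of 1.91 ± 0.48 (edgeR adjusted p = 0.105). Of the top 5 by ratio, M1 to M4 had log2 changes of 0.65 to 0.73 and M5 of 0.00, the lowest edgeR adjusted p among them being 0.423. M30 had 0.43 ± 0.47 and M9 had 0.53 ± 0.45.

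These values depended on both PND30 libraries, of which the first has 8 microglia and both deep nuclei of its stage. Without the first PND30 library, the median log2 change of the list was 0.98, and that of all tested features was -0.11. The single PND30 library is then assumed to vary like the PND10 libraries. Without the first PND10 library these medians were 0.67 and 0.09. Without the second PND10 library they were 0.48 and 0.10, and without the second PND30 library 0.18 and -0.10. The number of features called also changed with the library left out. Deep nuclei held 46.1% of the microglia UMIs of PND10 and 36.7% of those of PND30. With them left out of all libraries, 0 of 1670 features were called and the median of the 91 tested from the list was 0.31.

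**Figure D5:**
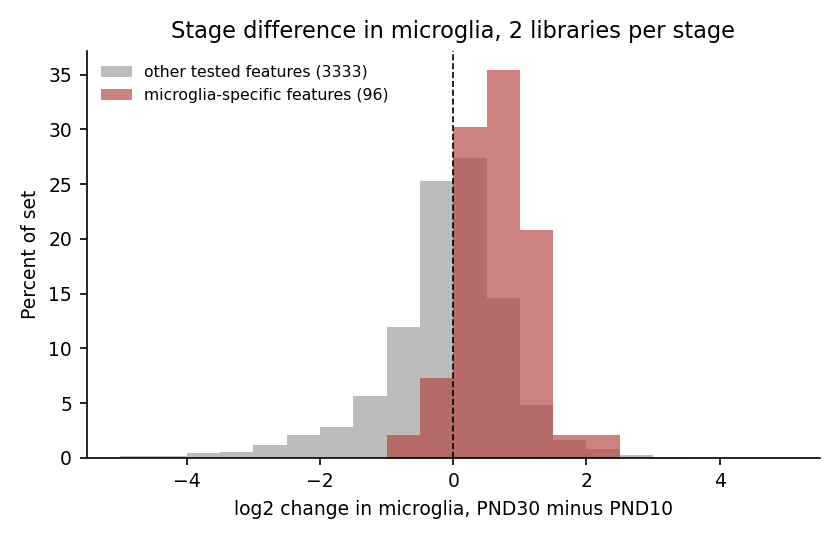
Distribution of the log2 change in microglia from PND10 to PND30 (x axis, positive means higher at PND30) from the edgeR fit of 2 against 2 libraries, for 96 features of the list (red) and the other tested features (grey), as percent of each set (y axis). The red bars lie mostly right of the dashed line at 0, with 87 of 96 features above it.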

How the data were processed

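The authors isolated nuclei from pooled frozen SCN, made libraries with 10x Genomics 3′ chemistry, and counted UMIs with Cell Ranger 5.0.1 on the mouse genome mm10. Raw UMI counts per matrix row and barcode were deposited without normalization, together with a table of clusters made in Seurat 4 after limits on UMIs (at least 750), features (500 to 10000) and doublet score, which named the cell types used here. Per the labels the replicate numbers name libraries, and the annotation names the stage, so nuclei were placed in a library by barcode. All microglia could be placed.

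UMIs were summed per cluster and library, since nuclei are not replicates, and scaled to CPM. No test was made at GD17.5 or PND2, where 1 library was made per stage. Levels there have exact Poisson intervals and shares Clopper-Pearson intervals, at the 95% level. PND30 was compared with PND10 with edgeR 4.0.16 (quasi-likelihood, TMM, filterByExpr) in R 4.3.3, with Benjamini-Hochberg adjustment over all features tested. On counts simulated for this comparison, 74% of 200 features changed by 2 on the log2 scale were recovered among 3342, with 7 false calls. Of 200 changed by 3, 90% were recovered among 3336, with 3 false calls. The simulated counts had the trended dispersion only, without added variation of single features or libraries, so recovery in the real counts may be lower. DESeq2 1.42.0 was an alternative. Nuclei were thinned to 1500 UMIs without replacement where stated. Other steps used Python 3.11.15, scipy 1.17.1 and numpy 2.4.6.

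The features and lists were chosen with earlier results of these data known. Features described one by one are M1 to M5, the 5 with the highest late level, up to 4 per direction and early stage whose interval excludes the late level, taken by their ratio to it, and those near or above it in endothelial cells. The latter and M8, M17 and M50 were picked after their values were seen, as was M13 for its ratio. The limit of 10000 UMIs for deep nuclei was chosen after seeing the data.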

Additional observations from a re-analysis of the deposited data

Results flagged for a closer look

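Microglia-specific features were also found in barcodes that the annotation does not hold. Of 21659 unannotated barcodes within the limits on UMIs and features, 191 had 1% or more of their UMIs from the 100 features, and 146 annotated microglia did so. The number was 21 of 4187 at GD17.5, 46 of 11838 at PND2, 17 of 1304 and 67 of 2001 in the PND10 libraries, and 11 of 710 and 29 of 1619 in those of PND30. Over all unannotated barcodes of a library the features gave 0.0452% to 0.111% of UMIs. The limits on mitochondrial and ribosomal reads and the doublet scores could not be recomputed without gene names, so why these barcodes are not annotated was not tested.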

How the results depend on the processing

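In all, 93 alternatives left the value within its margin, 34 moved it, and the cause of a move was not tested unless its construction shows it. The lists chosen under other settings shared 80 to 100 of the 100 features. For the early ratios, a change of pseudocount, of minimum CPM or of the deep nuclei also chose the list anew. The median ratio at GD17.5 (11.6) became 22.4 with a pseudocount of 1, 5.87 with 20, 8.62 with a minimum of 100 CPM, 18.6 in nuclei thinned to 1500 UMIs and 22.7 against clusters of at least 20 nuclei. At PND2 (12.0) it became 15.5 and 6.59 with these pseudocounts, 14.9 against clusters of at least 20 nuclei and 14.4 without nuclei over 10000 UMIs. The share of microglia UMIs at GD17.5, PND2 and PND10 became 3.98%, 4.03% and 4.85% as a median of nuclei, 3.53%, 3.82% and 3.75% when thinned, 3.30%, 3.52% and 2.72% with a minimum of 100 CPM, and 3.48%, 3.77% and 3.69% without nuclei over 10000 UMIs. Features higher in a cluster left out of the choice (0) became 1 with a pseudocount of 1, 2 with 20, 1 with the mean of library CPMs, and 0 to 3 on leaving out a library. The cluster was endothelial in each case, and 2 of these features were in the list (M53 and M58). Between PND10 and PND30, 51 features were called by DESeq2 and 0 to 456 on leaving out a library, and in the list 1 and 0 to 30. The fits without a library tested 2225 to 5621 features, 88 to 100 of them in the list. The highest counts, of all features and of the list, came without the first PND30 library. Each of these fits has 1 library at a stage, so no conclusion is drawn from their counts. A replicate block called 166 of the 3429 features tested, and 3 of the 96 tested from the list (M15, M45 and M87). The labels do not say that the number pairs libraries, and libraries with the same number deviated from the mean of their stage with a correlation of -0.0856 over 3429 features. RLE normalization and no filter on low counts (18164 tested) called 0. Leaving out nuclei over 10000 UMIs turned the balance of features above and below the late level, from 20 and 9 to 9 and 17 at GD17.5. At PND2 it went from 25 and 12 to 12 and 20, and the median from 1.06-fold to 0.885-fold. Over the 4469 features, 7.63% and 5.64% then lay above and below at GD17.5, and 10.9% and 10.8% at PND2. The precision is limited by the counts per feature at GD17.5 and by the number of libraries.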
